A study of Mus musculus with 10 samples.

Results

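The 8 core clock loop genes described here were the activators *Arntl* (also called *Bmal1*), *Clock* and *Npas2*, the repressors *Per1*, *Per2* and *Per3*, and the repressors *Cry1* and *Cry2*. They were chosen by gene symbol for their place in the loop, out of 55453 gene symbols in the count table. All 8 were among the 14614 genes that passed the low-count filter and were tested. RNA-seq counts came from the aortae of 10 male C57BL/6 mice, 5 young (14.5 weeks) and 5 old (92.5 weeks), with 1 library per mouse, the periadventitial fat removed and no treatment or altered allele named for either group. Per the paper, mice of both ages were killed at the same time. The hour and the lighting schedule were not given in the sources used here. Nor was the order in which the mice were taken. Without a series of sampling hours, a change in the mean level of a rhythmic transcript, in its amplitude and in its phase cannot be told apart. The same holds for any difference in the hour of collection between the ages.

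The circadian clock of most mammalian cells is a transcriptional feedback loop. ARNTL pairs with CLOCK, or with its paralogue NPAS2, and the pair binds E-box elements to switch on *Per* and *Cry* genes, whose proteins return to the nucleus and inhibit the pair. A stabilizing loop acts back on *Arntl* and *Npas2* through RORE elements, at which ROR proteins activate and REV-ERB proteins (encoded by *Nr1d1* and *Nr1d2*) repress, and the PAR-bZIP proteins DBP, TEF and HLF act through D-box elements, which NFIL3 also binds as a repressor. In many tissues *Arntl* and *Npas2* transcripts peak when those of the *Per* genes are low. The clock runs in smooth muscle and endothelial cells of the vessel wall.

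In the GENCODE M21 annotation of GRCm38, all 8 were protein-coding genes. The activators were *Arntl* at chr7:113207465-113314126 on the plus strand, *Clock* at chr5:76209868-76304792 on the minus strand and *Npas2* at chr1:39193731-39363236 on the plus strand. The *Per* genes lay at chr11:69095217-69109960 (*Per1*, plus strand), chr1:91415982-91459324 (*Per2*, minus strand) and chr4:151003652-151044665 (*Per3*, minus strand). *Cry1* was at chr10:85131700-85185064 and *Cry2* at chr2:92403646-92434043, both on the minus strand. Of the exonic bases of *Cry2*, 4.67% overlapped the opposite-strand gene *D930015M05Rik*, and of those of *Arntl* 0.44% overlapped the opposite-strand gene *Gm45355*. The strand setting of the counting was not given in the sources used here, so reads from these stretches may belong to either gene. The exons of the other 6 genes overlapped no other gene.

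The elements named above are shown here as they stand in the RefSeq promoter windows (GRCm38.p6), which run from 250 bases before to 50 bases after a transcript start, because the loop is wired through them. Windows were at hand for 7 of the 8 genes (11 windows, all but *Per2*), and 4 motifs were searched on both strands: the E-box CACGTG, the E-prime-box AACGTG, the D-box TTATGTAA and the RORE core TAGGTCA. A match is a string of letters in this window and not a shown binding site. In the lines that follow, the motif is in capitals and each sequence is read 5′ to 3′ on the strand of its gene. Distances are to the first base of a match, and a distance after a start counts the start itself as base 1.
Arntl RORE core, chr7:113207531-113207557, 31 bases after a transcript start and in an exon: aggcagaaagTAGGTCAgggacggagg
Per1 E-box, chr11:69098768-69098803, 166 bases before a transcript start: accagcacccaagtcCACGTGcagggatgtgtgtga
Per3 D-boxes, chr4:151044801-151044885, 205 and 158 bases before a transcript start: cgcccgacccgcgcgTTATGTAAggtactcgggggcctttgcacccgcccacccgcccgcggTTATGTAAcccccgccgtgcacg
Cry1 E-prime-box and E-box, chr10:85185094-85185148, 79 and 60 bases before a transcript start: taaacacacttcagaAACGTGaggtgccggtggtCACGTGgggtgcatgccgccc
Cry2 E-prime-box, chr2:92434215-92434250, 166 bases before a transcript start: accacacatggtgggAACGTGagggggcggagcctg
These 5 genes each had at least 1 match, and no match overlapped another; the windows of *Clock* and *Npas2* held none of these letters. Among all 32851 windows, 7.15% held the E-box, 4.68% the E-prime-box, 0.938% the D-box and 2.61% the RORE core.

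The libraries held 19640401 to 22886153 counts on genes. Mitochondrial genes took 4.50% to 6.51% of the counts, except in old 2 with 11.0%. Lists of markers showed smooth muscle as the main tissue. The summed normalized count (counts divided by the DESeq2 size factor of the library) of 7 smooth muscle markers was 796386 to 945758 in young and 736475 to 900014 in old aortae. Only *Smtn* of these 7 was called, as higher. Of the 7 log2 fold changes (old over young), 3 were positive and 4 negative. The 7 endothelial markers summed to 21110 to 35700 in young and 12095 to 24352 in old aortae, with *Tek* called lower in edgeR and 4 of the 7 genes in DESeq2. The 6 macrophage markers summed to 6636 to 8936 and to 8804 to 18141, with *Adgre1*, *Cd68* and *C1qa* called higher in edgeR and all 6 in DESeq2, and old 3 had the highest sum. The 6 T and B cell markers summed to 19.1 to 73.6 in young and 55.0 to 307.6 in old aortae, again with old 3 highest. *Cd3g* was called higher, and *Cd3e* and *Cd3g* were at 0 in at least 1 young library. Of 6 fibroblast markers *Lum* was called higher and *Pi16* and *Col1a1* lower, and the sums were 117235 to 136142 in young and 93393 to 123910 in old aortae. Of the 6 skeletal and cardiac muscle markers *Tnnt2* was called higher, with 173 to 354 normalized counts in young and 506 to 1545 in old aortae, and it made up most of the old sums (331 to 1064 in young and 685 to 1729 in old). The other 5 had lower means in old aortae without a call in edgeR, and DESeq2 called 1 of the 6 markers lower. *Myh6* and *Myh7* did not pass the low-count filter and were not tested in edgeR. *Myh6* had 4.09 to 161 normalized counts in young and 1.09 to 6.52 in old aortae, and *Myh7* was at 0 in at least 1 old library. Adipocyte markers (7 genes, 6181 to 20611 in young and 4569 to 9801 in old), Schwann cell markers (5 genes, 577 to 1338 and 801 to 1075) and red blood cell genes (4 genes, 692 to 3530.0 and 791 to 4397) had no call in edgeR, with 3, 1 and 0 genes at an unadjusted p below 0.05 and 1, 0 and 0 called by DESeq2. The part of these cell types, and of the mitochondrial share of old 2, in the results below was not tested beyond leaving out old 2 and old 3. In whole tissue, fewer cells of a type and less RNA per cell cannot be told apart.

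Old aortae had less mRNA of the 3 activators and more of *Per3* and *Cry2*. *Npas2* fell to 27.8% and *Arntl* to 29.5% of the young mean, while *Clock* fell to 68.3%. *Per3* rose 2.73-fold and *Cry2* 1.36-fold. *Per1*, *Per2* and *Cry1* had higher means in old aortae but did not pass the test. A gene is called at a Benjamini-Hochberg adjusted p below 0.05 over all 14614 tested genes in edgeR's quasi-likelihood test. By this rule 3 of the 8 genes were lower and 2 were higher, where 4.99% of all tested genes were called lower and 6.48% higher. The median log2 fold change (old over young) of all tested genes was 0.0034. The groups did not overlap for the same 5 genes: all old libraries lay below all young libraries for 3 of the 8, against 4.55% of all tested genes, and above them for 2 of the 8, against 5.37%. Each p-value rests on the spread between 5 mice per age.

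*Arntl* encodes ARNTL, which pairs with CLOCK or NPAS2 in this loop. Its normalized counts were 886, 639, 715, 727 and 561 in young replicates 1 to 5 and 349, 267, 139.8, 201 and 84.6 in old replicates 1 to 5. The highest old library was below the lowest young library, and old 5 was the lowest of all. The group mean was 706 ± 121 in the young and 208 ± 104 in the old (SD, n = 5 each), so the coefficient of variation was 17.1% among young and 49.9% among old mice. *Arntl* fell by 1.76 on the log2 scale (SE 0.32, edgeR adjusted p = 0.00717), the 20th lowest fold change among 14614 tested genes. Leaving out old 2 and old 3 together left a log2 fold change of -1.74 (edgeR adjusted p = 0.0474).

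*Npas2*, which can stand in for *Clock* as the partner of ARNTL, moved by about as much as *Arntl*. Young aortae had 1299, 877, 882, 956 and 597 normalized counts, and old aortae 318, 294, 187, 359 and 124. The ranges did not overlap, and replicate 5 was the lowest library within each age. The means were 923 ± 251 (SD, n = 5) and 256 ± 97.3 (SD, n = 5), a log2 fold change of -1.84 (SE 0.29, edgeR adjusted p = 0.00368). This was the 15th lowest fold change of all tested genes.

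*Clock*, a subunit of the activator pair with little rhythm of its mRNA in many tissues, was the steadiest of the 8 genes among young mice. Its normalized counts were 2939, 3025, 3122, 2889 and 2918 in young and 2381, 2140.2, 1683, 2200.0 and 1759.7 in old aortae. Every old library was below every young library, and the coefficient of variation was 3.18% among young and 14.7% among old mice. The means of 2979 ± 94.6 (SD, n = 5) and 2033 ± 299 (SD, n = 5) gave a log2 fold change of -0.54 (SE 0.09, edgeR adjusted p = 0.00176). *Clock* thus had the smallest fold change of the activators and the lowest p of the 3, ranking 261st by p where *Npas2* ranked 390th and *Arntl* 553rd.

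**Figure D1:**
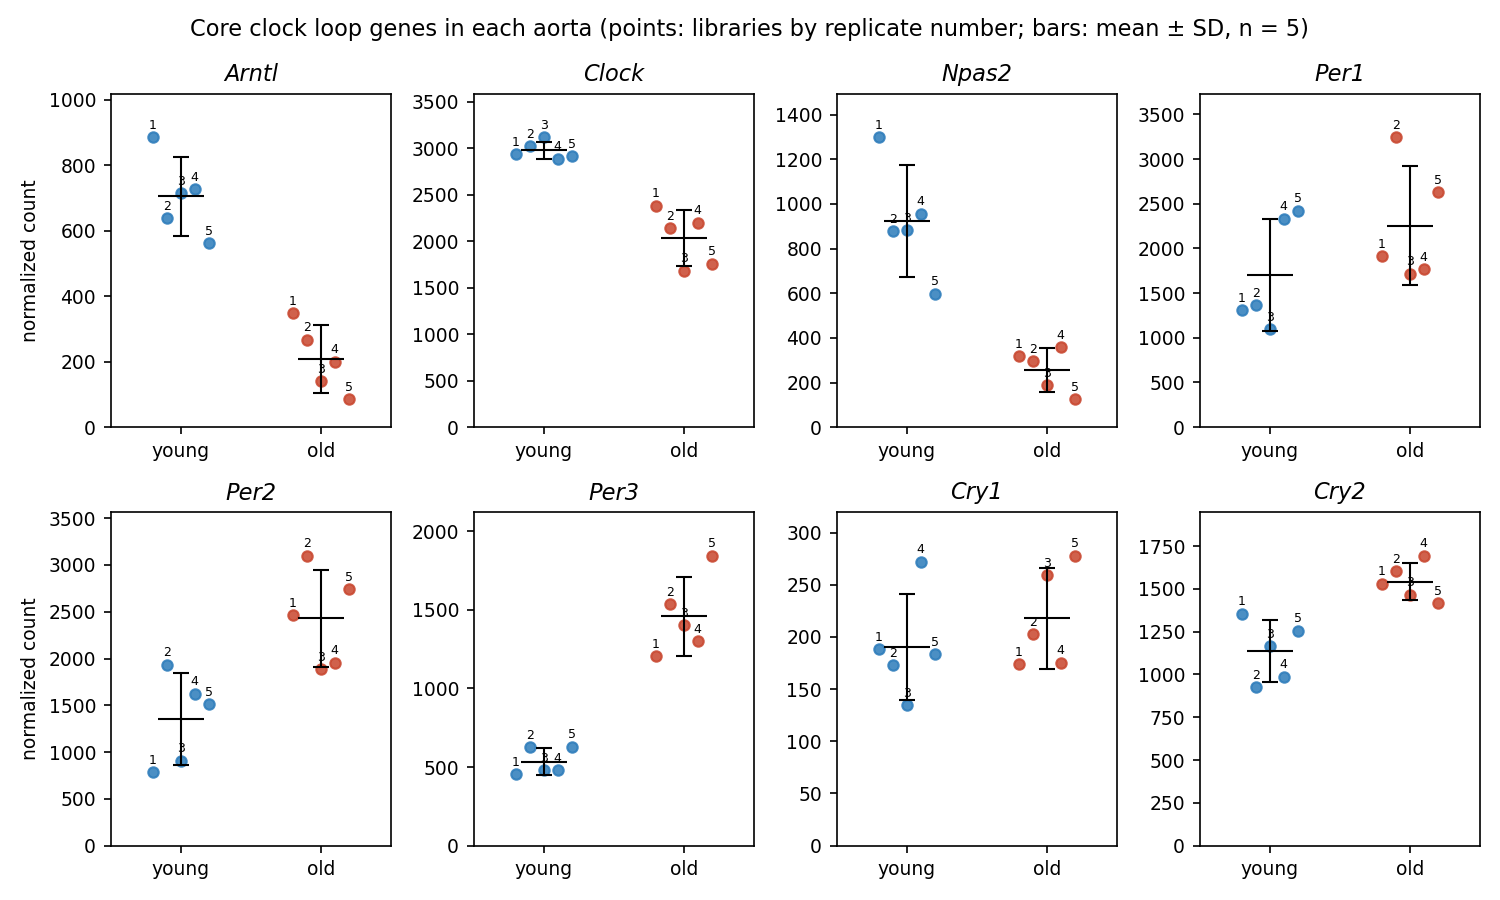
Normalized counts (vertical axis, starting at 0, own scale in each panel) of the 8 core clock loop genes in 5 young and 5 old aortae; points are libraries marked with their replicate number, and black bars are the mean ± SD. The groups are separate for *Arntl*, *Clock* and *Npas2* (old below) and for *Per3* and *Cry2* (old above), and they overlap for *Per1*, *Per2* and *Cry1*.

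*Per3*, which encodes a PER protein that is dispensable for the loop itself in mice, had the lowest p of the 8 genes. Young aortae held 454, 625, 482, 482 and 629 normalized counts, and old aortae 1206, 1534, 1399.9, 1301 and 1844. The lowest old library was 1.92 times the highest young library. From 534 ± 85.4 (SD, n = 5) in young, the mean rose to 1457 ± 248 (SD, n = 5) in the old, and the fitted log2 fold change was 1.46 (SE 0.13, edgeR adjusted p = 4.96e-05). By p it ranked 23rd of 14614 tested genes, and 1.12% of tested genes had an absolute log2 fold change at least as large.

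*Per2*, a repressor whose loss disturbs daily rhythms in mice, was high in most old libraries, but with a wide spread among the young. The young libraries gave 783, 1934, 907, 1623 and 1509 normalized counts and the old ones 2463, 3101, 1884, 1956 and 2743. Young 2, at 1934, was above old 3, at 1884, and no other pair of a young and an old library overlapped. The means were 1351 ± 489.5 (SD, n = 5) and 2429 ± 518 (SD, n = 5), and the log2 fold change was 0.85 (SE 0.26, edgeR adjusted p = 0.0617). The call depended on the test and on young 2: *Per2* passed with DESeq2 (0.85, adjusted p = 0.0183), with limma-voom (0.91, adjusted p = 0.0230) and with edgeR without young 2 (1.02, adjusted p = 0.0393).

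*Per1* is the *Per* gene that also answers acutely to glucocorticoid and cAMP signals. It ranged from 1099.7 to 2422 normalized counts in young and from 1717 to 3246 in old aortae. Young 4 and young 5 lay among the old libraries, while young 1 to 3 lay below them. The means of 1705 ± 623 (SD, n = 5) and 2254 ± 664 (SD, n = 5) gave a log2 fold change of 0.41 (SE 0.27, edgeR adjusted p = 0.376), which did not pass the test.

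*Cry2*, a CRY protein that represses the activator pair together with PER proteins, had normalized counts of 1356, 925, 1164, 988 and 1256 in young aortae. In old aortae the counts were 1531, 1604, 1467, 1695 and 1418, all above the young ones, though the gap between old 5 and young 1 was small. The means were 1138 ± 180.2 (SD, n = 5) and 1543 ± 110.1 (SD, n = 5), and the log2 fold change was 0.45 (SE 0.10, edgeR adjusted p = 0.0107). Without old 2 and old 3 together it was 0.45 again and did not pass (edgeR adjusted p = 0.0544). *Cry1*, its stronger paralogue as a repressor, had the lowest counts of the 8 genes in young aortae, 135 to 272, and 174 to 278 in old aortae. Its means of 190.3 ± 50.4 and 218 ± 48.2 (SD, n = 5 each) gave a log2 fold change of 0.20 (SE 0.19, edgeR adjusted p = 0.537).

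Levels of different genes were compared as counts per kilobase of exon and per 1e6 counts on genes. Among young aortae the order of mean levels was *Per1* (13.8), *Per2* (10.5), *Clock* (9.92), *Npas2* (8.84), *Cry2* (8.24), *Arntl* (4.30), *Cry1* (2.60) and *Per3* (2.53). Of neighbours in this order, *Cry2* and *Arntl* did not overlap over the 5 libraries, and every other pair did. In old aortae the order was *Per2* (19.4), *Per1* (18.7), *Cry2* (11.4), *Per3* (7.10), *Clock* (6.92), *Cry1* (3.05), *Npas2* (2.50) and *Arntl* (1.29). Here *Per1* and *Cry2*, *Cry2* and *Per3*, and *Clock* and *Cry1* were separate, and the other neighbours overlapped. *Per3* stood last among the young and above *Clock* among the old, and *Npas2* stood above *Cry2* among the young and next to last among the old.

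The ratio of an activator to a *Per* transcript within 1 library does not depend on how libraries are scaled, and for *Arntl* and *Npas2* it sets genes that peak when the *Per* genes are low against them. The log2 ratio of *Arntl* to *Per2* counts was 0.18, -1.60, -0.34, -1.16 and -1.43 in young replicates 1 to 5. In old replicates 1 to 5 it was -2.82, -3.54, -3.75, -3.29 and -5.02, with every old library below every young one. The mean went from -0.87 ± 0.76 (SD, n = 5) to -3.68 ± 0.82 (SD, n = 5), a 7.03-fold lower ratio in old aortae.

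Across the 9 ratios of an activator to a *Per* gene, the old mean was lower in 9 of 9, and the groups did not overlap in 8 of 9. Of all pairs among the tested genes, 11.1% gave ratios without overlap. The 9 ratios share 6 genes and follow from the levels above, so they describe those levels and were not tested. The widest difference was that of *Arntl* to *Per3*, with 0.893 to 1.95 *Arntl* counts per *Per3* count in young and 0.0459 to 0.289 in old aortae, a 10.2-fold lower geometric mean. *Npas2* to *Per3* was 10.2-fold lower as well, with 0.950 to 2.86 and 0.0675 to 0.276 counts per count. Per kilobase of exon, the geometric mean of the *Arntl* to *Per3* ratio was 1.68 in young and 0.165 in old aortae, and that of *Npas2* to *Per3* was 3.39 and 0.333. The single ratio that overlapped was *Clock* to *Per1*, with log2 values of 0.27 to 1.51 in young and -0.60 to 0.32 in old aortae. Old 5 had the lowest ratio of *Arntl* and of *Npas2* to each *Per* gene.

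**Figure D2:**
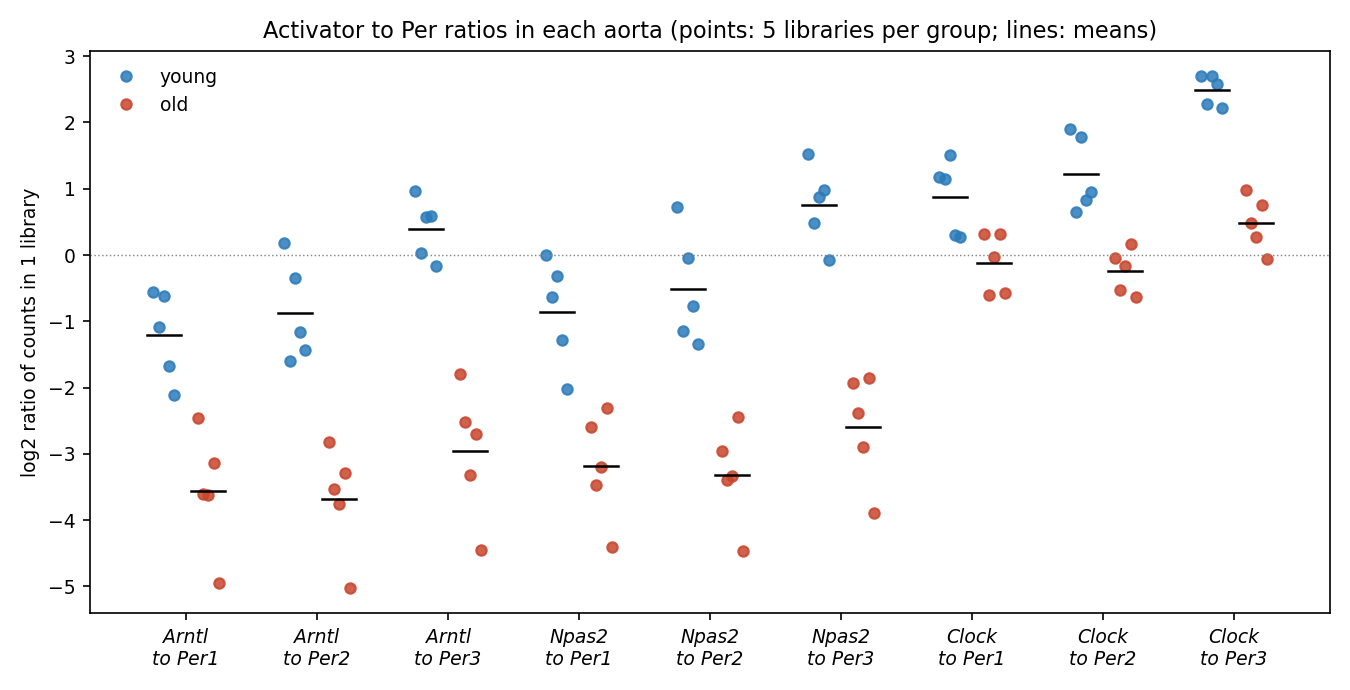
Log2 ratio of activator to *Per* counts within each library (vertical axis), for *Arntl*, *Npas2* and *Clock* against *Per1*, *Per2* and *Per3* (horizontal axis); blue points are the 5 young and red points the 5 old aortae, black lines are means, and the dotted line marks equal counts. Every ratio had a lower mean in old aortae, and *Clock* to *Per1* is the single panel position where the points of both ages overlap.

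With *Cry2* in place of a *Per* gene the activator ratios were also separate. The log2 ratio of *Arntl* to *Cry2* went from -0.69 ± 0.28 to -3.05 ± 0.74, that of *Npas2* to *Cry2* from -0.33 ± 0.44 to -2.69 ± 0.55, and that of *Clock* to *Cry2* from 1.40 ± 0.24 to 0.39 ± 0.16 (SD, n = 5 each). For the *Clock* to *Cry2* ratio the SD between mice was 0.21 on the log2 scale when pooled over both ages, the lowest of the 12 activator ratios, and the difference of -1.01 was 4.94 times as large.

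Proportions within a family were compared next. They were chosen after the levels were seen and are given as descriptions. The log2 ratio of *Clock* to *Npas2* was 1.18 to 2.29 in young and 2.62 to 3.82 in old aortae, with no overlap. Of the summed per-kilobase level of both partners of ARNTL, the share of *Npas2* was 46.3% ± 6.85 among the young and 25.8% ± 5.67 among the old (SD, n = 5 each). *Per3* made up 9.92% ± 2.27 of the summed *Per* level of young aortae (6.76% to 12.5%) and 16.0% ± 2.53 of that of old aortae (12.6% to 18.9%). *Per1* made up 51.2% ± 8.10 and 41.0% ± 2.79, and *Per2* 38.9% ± 7.65 and 43.0% ± 2.53, and both of these shares overlapped. The log2 ratio of *Arntl* to *Npas2* overlapped, at -0.36 ± 0.18 in young and -0.36 ± 0.38 in old aortae. *Cry2* to *Cry1* overlapped too, at 2.60 ± 0.48 and 2.85 ± 0.40.

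Whether the 8 genes also varied together between mice of 1 age was examined after removing the group means from the log2 normalized counts, over 10 libraries and 28 pairs of genes. The 3 pairs of activators all correlated positively, with Pearson's r of 0.72 to 0.87, as did the 3 pairs of *Per* genes, with 0.48 to 0.67. Within the old libraries alone, r was 0.87 for *Arntl* and *Clock* and 0.86 for *Clock* and *Npas2*, and within the young alone it was -0.0097 and 0.010, so these 2 pooled values came from the old libraries. For *Arntl* and *Npas2*, r was 0.97 in young and 0.89 in old libraries. With 5 libraries per age these values are descriptions, and their difference was not tested. Of the 9 pairs of a *Per* gene and an activator, 8 were negative, from -0.78 for *Npas2* and *Per3* to -0.13, and *Clock* and *Per2* had 0.05. By exact two-sided permutation within each age, 4 of the 28 pairs had an unadjusted p below 0.05 and 1 had a Benjamini-Hochberg adjusted p below 0.05.

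The pair that passed was *Clock* and *Cry1*, with Pearson's r of -0.75 (exact permutation p = 0.000903, adjusted p = 0.0253) and Spearman's rho of -0.84 (exact permutation p = 0.000625, adjusted p = 0.0175). Without the 2 libraries farthest from the median of *Clock*, r was -0.76 and the adjusted p was 0.0778 by exact permutation over 8 libraries. In all values without 2 libraries, the group means removed were still those of all 10 libraries. An offset between the ages can therefore remain in them. *Arntl* and *Npas2* had r of 0.87 (exact permutation p = 0.00396, adjusted p = 0.0554) and rho of 0.88 (exact permutation p = 0.00632), and r was 0.82 without the 2 farthest libraries. For *Npas2* and *Per3*, r was -0.78 (exact permutation p = 0.0137, adjusted p = 0.128) and rho -0.84 (exact permutation p = 0.00715). For *Arntl* and *Per3*, r was -0.72 (exact permutation p = 0.0204, adjusted p = 0.143) and rho -0.75 (exact permutation p = 0.0308). Without the 2 farthest libraries these last 2 went to r of -0.45 and -0.37, with the same limit.

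**Figure D3:**
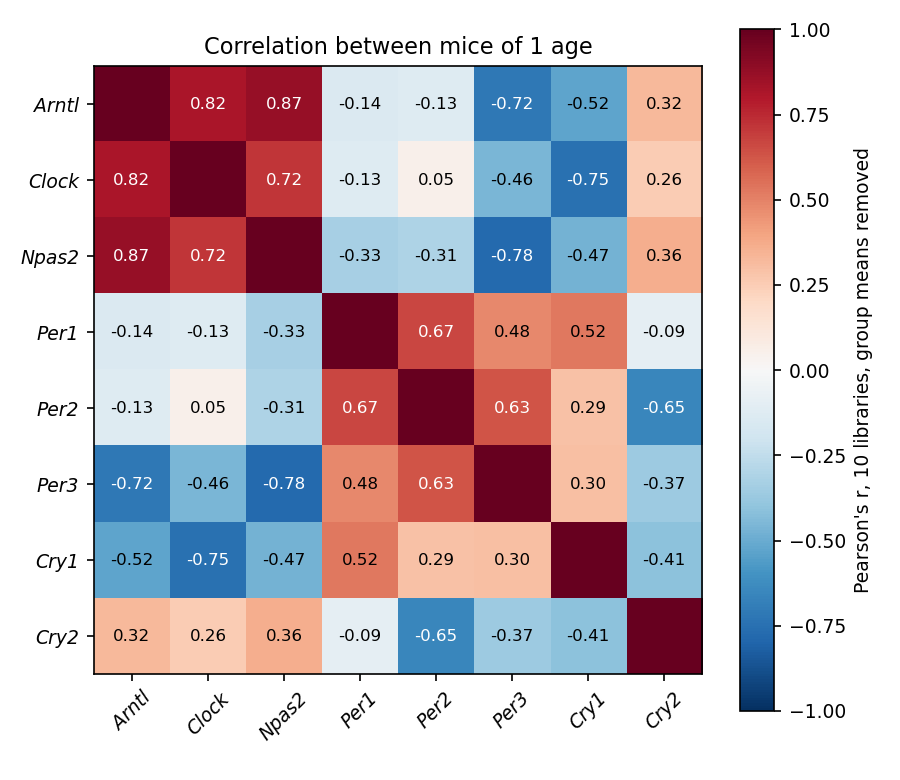
Pearson's r between the log2 normalized counts of each pair of core clock loop genes over 10 libraries, after the mean of each age group was removed; red is positive and blue negative, on a colour scale from -1 to 1. The block of *Arntl*, *Clock* and *Npas2* and the block of *Per1*, *Per2* and *Per3* are positive, though both *Clock* pairs of the first block were near 0 within the young libraries alone, and *Clock* with *Cry1* (-0.75) is the pair that passed the adjusted permutation test.

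Genes whose deviations between mice of 1 age were most like those of *Arntl* and *Per2* were looked up among 12154 tested genes with a mean normalized count of at least 50. For *Arntl* the 3 most alike outside the loop were *Trim41* (r = 0.94), *Adamts4* (0.91) and *1010001N08Rik* (0.89), and the 3 most opposite were *Ccdc174* (-0.93), *Clta* (-0.92) and *Ccdc85b* (-0.91). *Npas2* was the 12th and *Clock* the 27th most alike to *Arntl* of all these genes. For *Per2* the most alike were *Mul1* (0.97), *Uxt* (0.96) and *Rundc1* (0.95), and the most opposite *Meox2* (-0.97), *Ctnnal1* (-0.96) and *Ptger1* (-0.96). With 10 libraries that share their scaling and 12154 genes, values of this size are a description and were not tested. Of these 12 genes, *Adamts4* was called lower (log2 fold change -1.13, edgeR adjusted p = 0.00565), *Ctnnal1* was called lower (-0.41, edgeR adjusted p = 0.00921), and *Ccdc85b* (0.74, edgeR adjusted p = 0.00146) and *Ptger1* (0.83, edgeR adjusted p = 0.00661) were called higher.

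Beyond the loop, 52 other clock genes in 4 lists were examined. Over all 14614 tested genes, 6.48% were called higher and 4.99% lower. Of the 52 genes, 10 were called in the same edgeR fit. The genes of the stabilizing loop and of the PAR-bZIP and DEC families, on which or through which the core loop acts, held 8 of these calls among 12 genes, 11 of them tested, with a median log2 fold change of 0.87. Called higher were *Nr1d2*, *Dbp*, *Tef*, *Hlf*, *Bhlhe41* (a DEC repressor at E-boxes) and *Ciart* (a repressor of the activator pair), with log2 fold changes of 0.73 to 2.36, and called lower were *Nfil3* (-2.74, SE 0.36, edgeR adjusted p = 0.00173) and *Rora* (-0.56, SE 0.15, edgeR adjusted p = 0.0371). *Nr1d1* overlapped between the ages, with 2488 to 5986 normalized counts in young and 5211 to 7027 in old aortae (log2 fold change 0.68, SE 0.26, edgeR adjusted p = 0.136). In a ratio added after the levels were seen, *Arntl* to *Dbp* went from a log2 value of -0.56 ± 0.71 to -4.35 ± 1.25 with age (SD, n = 5 each), without overlap.

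The listed kinase and ubiquitin ligase genes, which act on clock proteins, had small fold changes. For this and the next lists, the share over all tested genes was 6.48% called higher and 4.99% called lower. None of the 18 kinase and ubiquitin ligase genes, such as *Csnk1d*, *Csnk1e* and *Btrc*, was called in edgeR, with 2 at an unadjusted p below 0.05 and 1 called by DESeq2. Their median log2 fold change was -0.05, with a range of -0.19 to 0.16. Of 15 partner and coregulator genes, *Cipc*, which inhibits CLOCK, was called higher (0.23, SE 0.07, edgeR adjusted p = 0.0389), and the median was -0.03. Of 7 output genes shared by many tissues, *Tspan4* was called higher (0.64, SE 0.14, edgeR adjusted p = 0.0124), and the median was 0.16. The calls of *Nr1d2*, *Rora* and *Cipc* were lost in several of the alternative fits. Apart from the fit with the replicate number as a block, their edgeR, DESeq2 and limma adjusted p-values were up to 0.114, 0.179 and 0.111. The call of *Tspan4* was lost without old 2 and old 3 together (edgeR adjusted p = 0.0634).

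**Figure D4:**
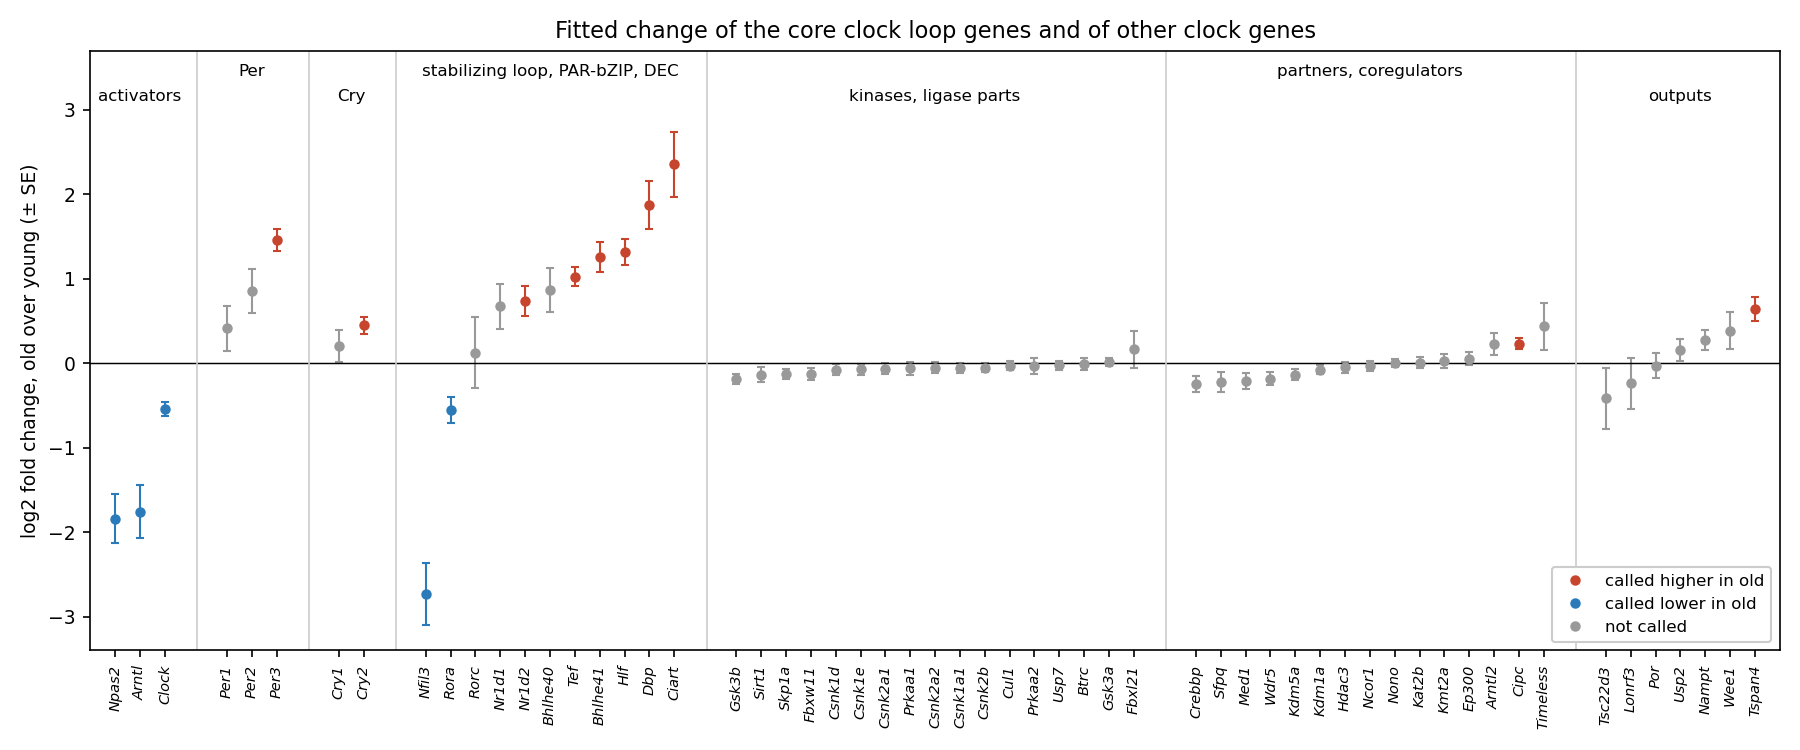
Log2 fold change of old over young aortae from edgeR, with its SE (vertical axis), for the 8 core clock loop genes and 50 of the 51 other clock genes tested, grouped by role and ordered by fold change within a group. Red marks genes called higher, blue genes called lower and grey genes not called. The calls are in the activators, the *Per* and *Cry* genes and the stabilizing loop with its PAR-bZIP and DEC genes, apart from *Cipc* and *Tspan4*.

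As *Per1* and *Per2* also answer to acute signals, genes induced by glucocorticoids and immediate early genes were set beside them. Calls in edgeR over all tested genes were 6.48% higher and 4.99% lower. Of 10 glucocorticoid-inducible genes *Errfi1* was called lower (log2 fold change -1.36, edgeR adjusted p = 0.00447), none was called higher by edgeR or DESeq2, and the median was -0.28. Of 10 immediate early and CREB-inducible genes *Junb* was called higher (0.77, edgeR adjusted p = 0.00957), *Fosb* (-1.16, edgeR adjusted p = 0.0337) and *Atf3* (-2.28, edgeR adjusted p = 0.00596) were called lower, and the median was -0.33. DESeq2 called 1 of these 10 genes higher and 3 lower. The call of *Fosb* was lost in 9 of 21 alternatives. Apart from the fit with the replicate number as a block, its adjusted p-values were up to 0.108 (edgeR without old 2 and old 3 together). The call of *Atf3* was lost in 2 of 21, of which leaving out old 2 and old 3 together gave an edgeR adjusted p of 0.0534.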

How the data were processed

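RNA of 10 mouse aortae was sequenced by the authors from stranded mRNA libraries. Per the submitters' processing notes and the paper, reads were trimmed with fastp 0.20.0, aligned to GRCm38 with STAR 2.7.0f under the GENCODE M22 annotation and counted per gene with featureCounts (Subread 1.6.4). The deposited values are raw whole-number counts for 55453 gene symbols, without normalization. The strand setting and the handling of reads with several alignments were not given in the sources used here.

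Libraries were grouped by the age in their labels. Genes passing filterByExpr (14614 of 28011 with a count) were tested with edgeR 4.0.16 (TMM scaling, robust quasi-likelihood fit, no covariate) under R 4.3.3, with Benjamini-Hochberg adjustment over all of them. The fit was tested on simulated data. Levels are counts over DESeq2 1.42.0 size factors. Levels between genes are per kilobase of GENCODE M21 merged exons. Ratios of clock genes are log2 of raw counts, with no pseudocount. For the share over all pairs of tested genes, a pseudocount of 0.5 was added to the raw counts. Correlations were tested by enumerating every permutation within age groups (smallest possible p 6.94e-05), with numpy 2.4.6 and scipy 1.17.1. In each of the 20 pairs of libraries of 1 age, the chi-square of their counts was 8.06 to 58.8 per degree of freedom, where repeats of 1 library would give about 1.

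The genes, lists and tests were chosen with earlier results of these data known. Named are the 8 genes, every called gene of the other clock lists and the acute lists, *Nr1d1*, *Dbp*, *Nfil3*, *Bhlhe41* and *Ciart* whatever their call, and the 3 genes most and least like *Arntl* and *Per2*. Cell type markers and the 3 kinase and ligase genes were named after their values were seen. The values of 1 listed gene are not reported here. Alternatives were DESeq2, limma-voom (limma 3.58.1) with and without quality weights, other size factors, no filter, a mean count of at least 10, a threshold of 0.01, the replicate number as a block, and leaving out libraries. Leaving out old 2 and old 3 together was added after seeing the data.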

Additional observations from a re-analysis of the deposited data

Results flagged for a closer look

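The spread within each age was examined for the 8 core clock loop genes, the 12 activator ratios and the 9 sums of cell type markers, 58 groups of 5 libraries in all. In 5 groups, all of them marker sums, 1 library stood apart by Dixon's criterion (gap over range above 0.71), and chance alone flags about 1 group in 20. No core clock loop gene and no activator ratio had such a library.

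Old 3 was high in 3 of these sums. Its macrophage markers summed to 18141 normalized counts (8804 to 10995 in the other old aortae), its T and B cell markers to 307.6 (55.0 to 95.9) and its skeletal and cardiac muscle markers to 1729 (685 to 979). Of this last sum, *Tnnt2* alone gave 1545, and the other 5 muscle markers had lower means in old than in young aortae. The Schwann cell markers of young 1 summed to 1338 (577 to 777 in the other young aortae), and the skeletal and cardiac muscle markers of young 2 to 1064 (331 to 522). The part of these cells in the core clock loop values was not tested beyond the fits that leave out each library.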

How the results depend on the processing

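*Arntl*, *Clock*, *Npas2* and *Per3* kept direction and call in all 21 alternatives, and 4 to 6 of the 8 genes were called, with 3 lower each time. Over the same 21 alternatives, 658 to 2643 of all tested genes were called, with 395 to 1432 higher and 263 to 1211 lower. Leaving out 1 library gave log2 fold changes of -2.03 to -1.56 for *Arntl*, -0.61 to -0.48 for *Clock*, -1.99 to -1.66 for *Npas2*, 1.36 to 1.52 for *Per3*, 0.38 to 0.52 for *Cry2* and 0.71 to 1.02 for *Per2*. *Per2* was called with DESeq2 (0.85), limma-voom (0.91), the same with quality weights (0.73), library size alone (0.89), and without young 2 (1.02). At an adjusted p below 0.01, *Cry2* (0.45) lost its call, 1 of the 8 genes was called higher, 6 other clock genes were called, and 658 genes in all (395 higher, 263 lower). Without old 2 and old 3 together, *Cry2* (0.45) lost its call, 1 of the 8 genes was called higher, 6 other clock genes were called, and 954 genes in all (556 higher, 398 lower); fewer samples enter that fit. Quality weights called 2643 genes (1432 higher, 1211 lower). Leaving out 1 library gave 1132 (without young 4) to 2367 (without young 1) genes, 658 to 1228 higher and 474 to 1139 lower, and 7 to 13 other clock genes. Whether the same replicate numbers in both ages mark pairs of libraries was not tested. Deviations of same-numbered libraries correlated at -0.29 to 0.13, and 2 of 5 pairs were above 0.1. Of 10 libraries, 4 correlated best with their own number. With the replicate number as a block, 467 genes were called lower, *Per2* was called (0.91), *Atf3* was not (edgeR adjusted p = 0.0703), and the other 7 core clock loop genes kept their side of the threshold. The *Arntl* to *Per2* ratio difference of -2.81 was -3.03 to -2.48 with 1 library left out, and other pairs gave -0.996 (*Clock* to *Per1*), -1.47 (*Clock* to *Per2*) and -2.01 (*Clock* to *Per3*). Without the 2 farthest libraries 0 pairs had an adjusted permutation p below 0.05 (4 unadjusted), and r changed sign for *Arntl* and *Per1* (0.16), *Clock* and *Per2* (-0.22) and *Npas2* and *Per1* (0.11). The group means were not taken anew for these values, so an offset between the ages can remain. Where no cause is named, the cause was not tested. Counting error is smallest for *Clock* (1806 to 3131 counts) and largest for *Arntl* (87 to 867) and *Cry1* (135 to 286).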
